A study of Mus musculus with 18 samples.

Results

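The 6 libraries described here came from LPS-treated peritoneal macrophages of both TLR4 lysine mutants, 3 of TLR4-K810R and 3 of TLR4-K730R, taken by their labels from the 18 libraries of the series. In TLR4-K730R mice the lysine at position 730 of the receptor, and in TLR4-K810R mice the lysine at position 810, is replaced by arginine, which keeps the positive charge of the residue but cannot be acetylated. The mice were made with CRISPR/Cas9 in C57BL/6. Their macrophages were drawn into the peritoneum with thioglycolate, washed out of the abdominal cavity and given 100 ng/ml LPS, the endotoxin of Gram-negative bacteria, for 6 h. Beside these 6 libraries, the 3 mock-treated libraries of each mutant and the 3 LPS-treated and 3 mock-treated libraries of TLR4-WT mice are given as reference values. Sex and age of the mice are not stated, and nothing says whether the 3 libraries of a group came from separate animals, so the p-values below measure the spread between these libraries, which may be technical. The comparison asks which transcripts differ between macrophages that carry one or the other substitution after the same stimulus.

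TLR4 binds LPS together with the small protein MD-2 and signals through its cytoplasmic TIR domain. By the adaptors MAL and MyD88 the receptor activates NF-κB, which switches on genes of inflammatory cytokines, and by TRAM and TRIF it activates IRF3, which leads to interferon and to interferon-stimulated genes. Lysines K730 and K810 lie in the TIR domain, where the adaptors dock.

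Both substituted codons lie in exon 3 of 3 of Tlr4 (transcript Tlr4-201, 835 codons, plus strand). The reference sequence of GRCm38 is shown to place the residues that define the groups, with the lysine codon in capitals.
K730 codon, chr4:66841147-66841173: cacaagagccggAAGgttattgtggta
K810 codon, chr4:66841387-66841413: tggagaagacttAAAaatgccctattg

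Each gene was given, in every library, the larger of 2 sums of FPKM (fragments per kilobase of length, scaled to library size), that over its first exons and that over its last exons, and differences are means of log2(FPKM + 1) of TLR4-K810R minus those of TLR4-K730R, which understates the change of low genes. Read counts are not part of the files, and the depth is therefore unknown. Across genes, log2 values of libraries of the same group correlated with r from 0.963 to 0.975 in TLR4-K730R LPS and from 0.966 to 0.973 in TLR4-K810R LPS, and those between the groups with r from 0.953 to 0.969. These correlations run across genes, which are no independent replicates.

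The macrophage identity of the 6 libraries was checked on 16 markers, whose summed level was 14404 to 15652 FPKM in TLR4-K730R against 15569 to 16522 FPKM in TLR4-K810R. Adgre1, which encodes the F4/80 antigen, lay between 205 and 271 FPKM in the 6 libraries, and Csf1r, the receptor for the growth factor M-CSF, between 277 and 422 FPKM. Itgam was listed at 0 in all 6 libraries, which in these files can be a missing estimate. In bulk RNA, fewer cells of a type and less RNA per cell cannot be told apart.

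Replicate 3 of TLR4-K730R LPS and replicate 1 of TLR4-K810R LPS stood apart from their groups, and these are the pair meant below by both libraries that stood apart. Replicate 3 of TLR4-K730R LPS had Cxcl10, an interferon-induced chemokine, at 913 FPKM beside 266 and 233 FPKM in the other two, and Cxcl2, an NF-κB-driven chemokine, at 393 FPKM beside 1208 and 1384 FPKM. In both genes it lay nearer to replicates 1 and 2 of TLR4-WT LPS, with 865 and 907 FPKM of Cxcl10 and 355 and 370 FPKM of Cxcl2. Its intestinal marker sum of 81.5 FPKM, in contrast, was next to the 83.6 and 86.8 FPKM of the other TLR4-K730R LPS libraries and above the 2.29 to 42.4 FPKM of TLR4-WT LPS. Across genes this library correlated with r of 0.969 and 0.974 with replicates 1 and 2 of TLR4-WT LPS, and with r of 0.966 and 0.963 with replicates 1 and 2 of its own group. Replicate 3 of TLR4-WT LPS, in turn, correlated with r of 0.970 with both of the latter and with r of 0.966 and 0.962 with the other two of TLR4-WT LPS, and lay between these groups with 450 FPKM of Cxcl10 and 836 FPKM of Cxcl2. Both replicates 3 were thus closer to replicates 1 and 2 of the other genotype than to those of their own in this measure. With each other they correlated with r of 0.96. Replicate 3 of TLR4-WT LPS was also at r of 0.964 to 0.970 with the libraries of TLR4-K810R LPS. The groups were kept as labelled, and whether these libraries carry the right labels was not tested. Replicate 1 of TLR4-K810R LPS had ferritin heavy chain, Fth1, at 39663 FPKM beside 18654 and 16711 FPKM in the other two.

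Between the mutants, 6 of 9707 genes tested were called at an adjusted p below 0.01 (limma, all 6 groups in one fit), 3 higher in TLR4-K810R, which is 0.0309% of all genes tested, and 3 lower, likewise 0.0309%. Higher were Mcm4, a subunit of the helicase that opens DNA for replication, Cluh, which binds mRNAs of mitochondrial proteins, and Hmgcs1, which makes HMG-CoA in the synthesis of cholesterol. Lower were Il12b, the p40 subunit of interleukin-12 and interleukin-23, Fcna, a secreted ficolin that binds bacterial sugars, and the chemokine Ccl8. At an adjusted p below 0.05, 118 genes passed, 95 higher (0.979%) and 23 lower (0.237%), and 1822 had an unadjusted p below 0.05. At that level 26, 79 and 29 genes passed without replicates 1, 2 and 3 of TLR4-K730R LPS. Without those of TLR4-K810R LPS the counts were 20, 18 and 28. Of the 29, 18 were among the 118. Without both libraries that stood apart 14 passed, of which 11 were among the 118. In mock-treated macrophages, which are other libraries of the same mutants, 8 genes were called at 0.01 and 45 passed at 0.05, and 94 of the 118 genes had a difference of the same sign. The difference between the LPS responses of the mutants was called for 1 gene, Hp, and passed at 0.05 for Hp and Tgfbi.

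Each called gene separated the libraries without overlap. Over all genes tested, the 3 TLR4-K810R libraries lay above the 3 of TLR4-K730R for 21.3% and below for 4.44%. The median difference over all genes was 0.134, with 6719 genes higher and 2952 lower in TLR4-K810R. Median-of-ratios scaling moved this median to -0.03 and turned the split at 0.05 from 95 higher and 23 lower into 49 higher and 84 lower, so the balance of directions rests on the scaling, and the medians of the larger gene lists are also given relative to that of all genes.

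**Figure D1:**
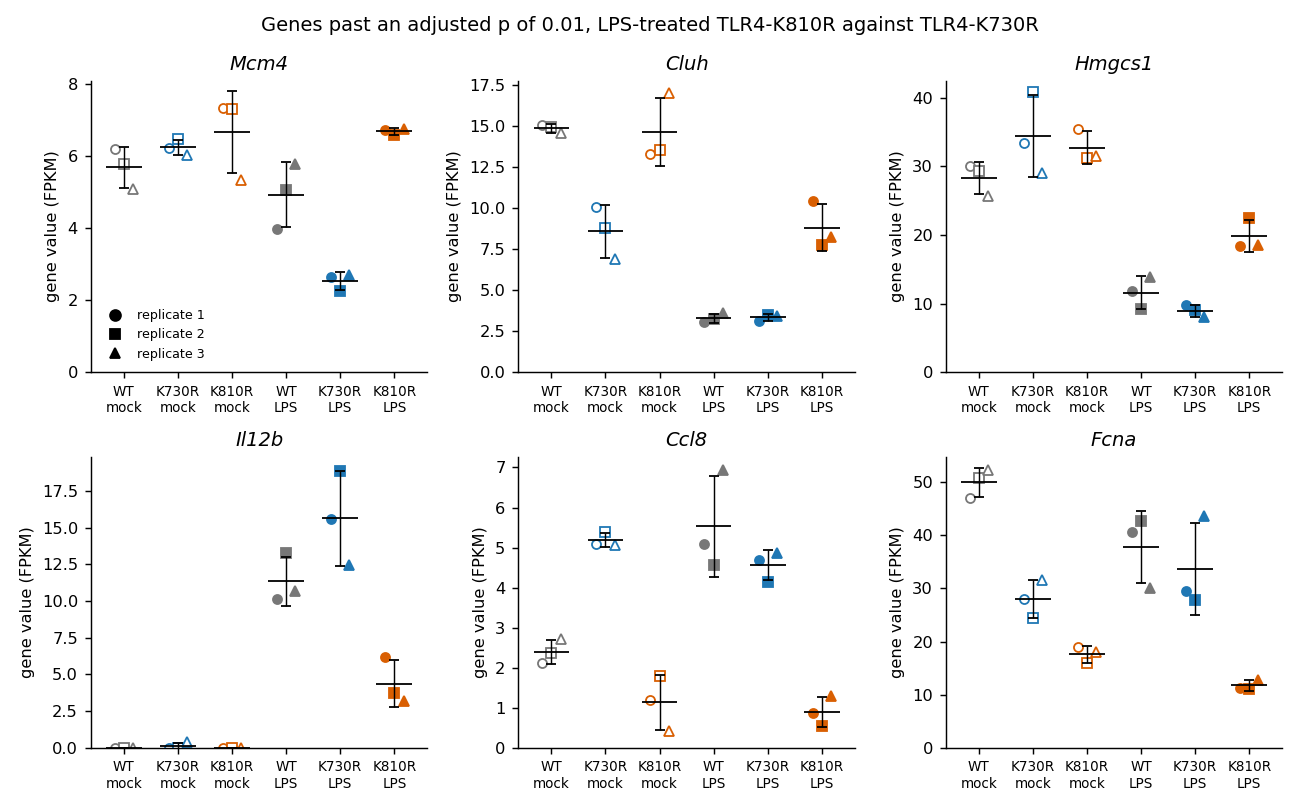
The 6 genes called between TLR4-K810R and TLR4-K730R after LPS, in FPKM per library (open points mock-treated, filled points LPS-treated, marker shapes replicate numbers, lines group means, bars SD, n = 3). In each of the 6 panels the 3 TLR4-K810R LPS libraries lie on one side of the 3 TLR4-K730R LPS libraries; Hmgcs1 and Mcm4 lie close together in mock-treated mutants, whereas Ccl8 is already apart there.

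Mcm4 (ENSMUSG00000022673, chromosome 16, 15623897 to 15637400, minus strand) was at 2.65, 2.24 and 2.68 FPKM in TLR4-K730R LPS and at 6.72, 6.57 and 6.74 FPKM in TLR4-K810R LPS (log2 difference 1.13 with a standard error of 0.14, limma adjusted p = 0.00127). Replicates of each mutant were close to each other, and the TLR4-WT LPS libraries lay between them at 3.96, 5.04 and 5.76 FPKM. Mock-treated macrophages had 6.03 to 6.46 FPKM in TLR4-K730R against 5.33 to 7.31 FPKM in TLR4-K810R, which overlapped.

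Cluh (ENSMUSG00000020741, chromosome 11, 74649495 to 74670847, plus strand) was at 3.12, 3.50 and 3.44 FPKM in TLR4-K730R LPS and at 10.5, 7.74 and 8.26 FPKM in TLR4-K810R LPS (log2 difference 1.16 with a standard error of 0.14, limma adjusted p = 0.00127). The TLR4-WT LPS libraries, at 3.04, 3.22 and 3.60 FPKM, were at the level of TLR4-K730R. Without LPS the difference was 0.71 in the same direction (adjusted p = 0.0383 from limma), from 6.89 to 10.1 FPKM in TLR4-K730R to 13.3 to 17.1 FPKM in TLR4-K810R.

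Il12b (ENSMUSG00000004296, chromosome 11, 44400063 to 44414033, plus strand) was at 15.6, 18.9 and 12.4 FPKM in TLR4-K730R LPS and at 6.17, 3.74 and 3.21 FPKM in TLR4-K810R LPS (log2 difference -1.65 with a standard error of 0.20, limma adjusted p = 0.00127). The 3 TLR4-WT LPS libraries, from 10.1 to 13.2 FPKM, were all above the highest TLR4-K810R library. In mock-treated macrophages Il12b was listed at 0 in 5 of the 6 mutant libraries and at 0.385 FPKM in the other.

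Fcna (ENSMUSG00000026938, chromosome 2, 25624666 to 25628030, minus strand) was at 29.6, 27.8 and 43.7 FPKM in TLR4-K730R LPS and at 11.3, 11 and 12.8 FPKM in TLR4-K810R LPS (log2 difference -1.42 with a standard error of 0.17, limma adjusted p = 0.00127). The mutants were in the same order without LPS, with 24.4 to 31.6 FPKM in TLR4-K730R against 15.9 to 18.9 FPKM in TLR4-K810R, although that difference of -0.64 did not pass (adjusted p = 0.117). Only last-exon events of Fcna had a value in the LPS libraries of the mutants, so its value rests on 1 end of the gene.

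Ccl8 (ENSMUSG00000009185, chromosome 11, 82115185 to 82116799, plus strand) was at 4.69, 4.15 and 4.86 FPKM in TLR4-K730R LPS and at 0.855, 0.531 and 1.30 FPKM in TLR4-K810R LPS (log2 difference -1.57 with a standard error of 0.22, limma adjusted p = 0.00429). In mock-treated macrophages it was as far apart, at 5.07 to 5.39 FPKM in TLR4-K730R against 0.417 to 1.79 FPKM in TLR4-K810R (-1.59, adjusted p = 0.00312). The difference between both contrasts, which is the difference between the LPS responses of the mutants, was 0.02 (adjusted p = 0.996).

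The calls depended on which libraries entered the fit. With only both compared groups, or only the 3 LPS-treated groups, in limma's fit, 0 genes were called, with 1694 and 1631 at an unadjusted p below 0.05. The call was lost for Fcna in 5 of 22 alternatives, and for Cluh in 8, Mcm4 and Il12b in 9, Ccl8 in 13 and Hmgcs1 in 15 of 24. Over these alternatives the log2 difference ranged from 0.98 to 1.37 for Mcm4, from 1.0 to 1.36 for Cluh, from 0.88 to 1.17 for Hmgcs1, from -1.63 to -1.20 for Fcna, from -2.02 to -1.44 for Il12b and from -2.30 to -1.43 for Ccl8. Hmgcs1 was lost without any of the 6 libraries, Ccl8 without any but replicate 3 of TLR4-K810R, Mcm4 and Il12b without replicate 2 of TLR4-K730R or replicate 2 or 3 of TLR4-K810R, Cluh without replicate 2 of either mutant and Fcna without replicate 2 of TLR4-K810R. Without replicate 2 of TLR4-K730R LPS 1 gene was called and without replicate 3 of TLR4-K810R LPS 3 genes. Without replicate 2 of TLR4-K810R LPS 0 genes were called, with 18 at an adjusted p below 0.05 and 1553 at an unadjusted p below 0.05. Leaving out both libraries that stood apart gave 9 calls, of which Fcna and Il12b were among the 6 above. Leaving out replicate 3 of TLR4-K730R LPS together with replicate 3 of TLR4-WT LPS gave 23 calls, 10 higher and 13 lower, which held all 6.

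Of the genes of cholesterol synthesis, 8 of 19 tested passed at the 0.05 level, all higher in TLR4-K810R. Hmgcs1 begins the pathway, Mvk phosphorylates mevalonate, Sqle and Lss make the first sterol, Cyp51, Hsd17b7 and Sc5d modify the sterol ring, and Insig1 holds back the regulator SREBP2 when sterols are plentiful. All 19 genes of the list of 20 that could be tested had a higher mean in TLR4-K810R LPS than in TLR4-K730R LPS, 17 of them with the libraries apart, beside 21.3% of all genes. The 8 just named passed at an adjusted p below 0.05, beside 0.979% of all genes, and were named after their values were seen except for Hmgcs1, Sqle and Hsd17b7. The median difference of the list was 0.793, which is 0.659 above that of all genes, and 0.682 above it with median-of-ratios scaling.

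Hmgcs1 (ENSMUSG00000093930, chromosome 13, 119690379 to 119708260, plus strand) was at 9.72, 9.06 and 8.03 FPKM in TLR4-K730R LPS and at 18.4, 22.5 and 18.6 FPKM in TLR4-K810R LPS (log2 difference 1.07 with a standard error of 0.15, limma adjusted p = 0.00539). Mock-treated macrophages of both mutants had more, 29.0 to 40.8 FPKM in TLR4-K730R against 31.2 to 35.5 FPKM in TLR4-K810R, and these ranges overlapped. The difference between the LPS responses of the mutants was 1.13 (adjusted p = 0.0871), which did not pass.

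Sqle, squalene epoxidase, was at 8.92, 7.58 and 5.98 FPKM in TLR4-K730R LPS and at 15, 16.0 and 15.8 FPKM in TLR4-K810R LPS (0.98, adjusted p = 0.0115 from limma). Cyp51 was at 7.02, 5.91 and 5.13 FPKM against 13, 13.4 and 11.3 FPKM (0.96, adjusted p = 0.0183). Mvk was at 5.74, 7.17 and 5.89 FPKM against 14.4, 11.6 and 12.5 FPKM (0.93, adjusted p = 0.0319). In each of these 3 genes the highest TLR4-WT LPS library was below the lowest TLR4-K810R LPS library, as the plot of the cholesterol genes shows.

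The remaining 4 that passed were Hsd17b7 (0.88, adjusted p = 0.0183 from limma), Lss (0.82, adjusted p = 0.029), Sc5d (0.79, adjusted p = 0.0379) and Insig1 (0.72, adjusted p = 0.0266). Insig1 was at 18.2, 19.9 and 15 FPKM in TLR4-K730R LPS and at 30.2, 31.0 and 27.7 FPKM in TLR4-K810R LPS. Srebf2, which encodes SREBP2, was at 30.9, 30.5 and 28.6 FPKM against 40.5, 39.7 and 44.1 FPKM, apart but not past the 0.05 level (0.45, adjusted p = 0.0756). Fdps, which makes farnesyl pyrophosphate, overlapped between the mutants, with 15.8 to 27.7 FPKM against 21.7 to 47.5 FPKM.

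**Figure D2:**
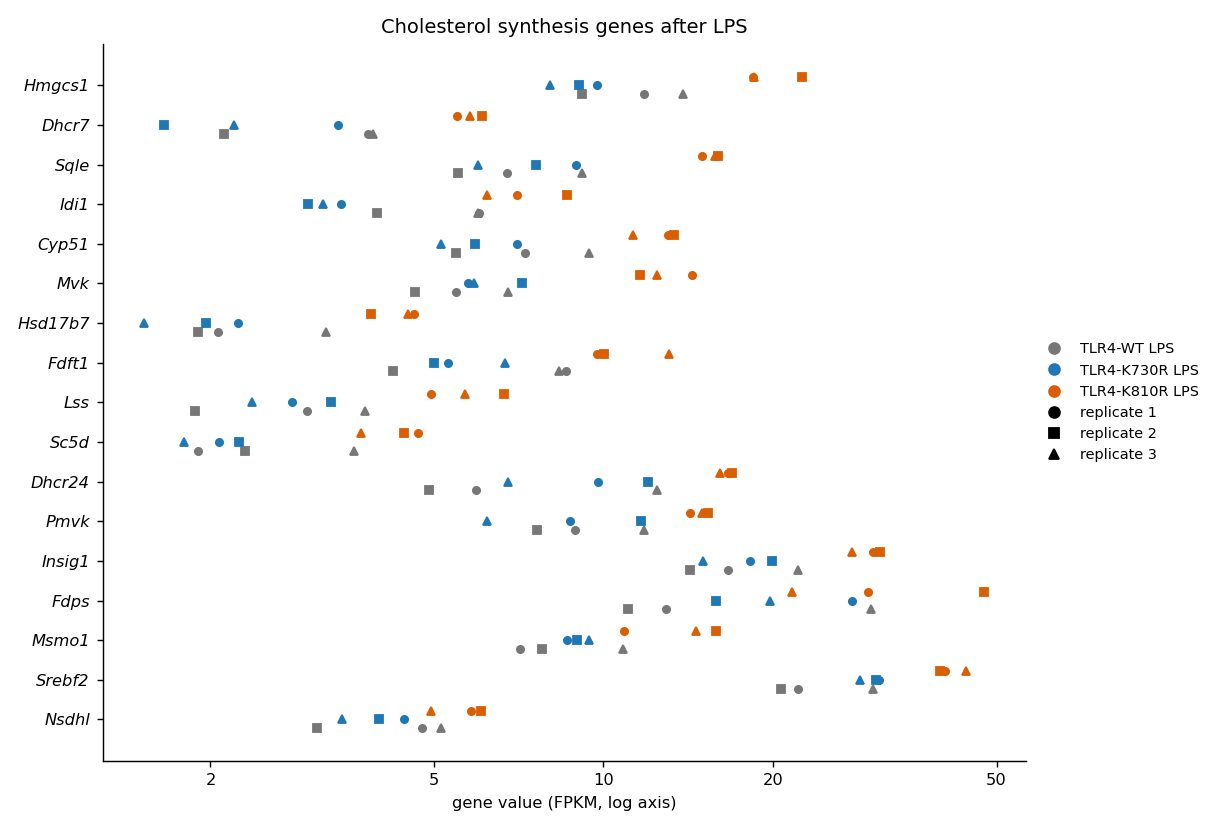
FPKM on a log axis of 17 of the tested cholesterol synthesis genes in the 9 LPS-treated libraries, one row per gene ordered by the difference between the mutants, with colours for genotypes and marker shapes for replicate numbers. The TLR4-K810R points lie right of the TLR4-K730R points in 16 rows, and overlap them for Fdps.

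As a mean over the list, log2(FPKM + 1) was 3.21, 3.12 and 3.0 in the TLR4-K730R LPS libraries and 3.84, 3.95 and 3.79 in those of TLR4-K810R. Mock-treated libraries had 4.19 to 4.30 in TLR4-K730R and 4.36 to 4.5 in TLR4-K810R, and their list median difference was 0.145 with 17 of 19 genes higher. The TLR4-WT LPS libraries had 3.14, 2.87 and 3.51. In both mutants the list means of the LPS libraries were below those of the mock-treated libraries. Leaving out both libraries that stood apart gave a median of 0.728, but then 0 of the 19 genes passed the 0.05 level in limma's test, with 15 at an unadjusted p below 0.05. Leaving out 1 of the 6 libraries at a time, 2 to 8 genes passed, and with only both compared groups in the fit 1 gene. With only the 3 LPS-treated groups in the fit 0 passed, with 18 at an unadjusted p below 0.05.

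RefSeq windows of 250 bases before the start were at hand for 11 of the 19 cholesterol genes. SREBP2 is known to act on a sterol response element, together with the factor NF-Y, which binds the CCAAT box. The CCAAT box, searched as ATTGG on both strands, was found in 11 of these 11 windows, in 8 of 10 windows of the cell cycle list described next and in 37.7% of the 6010 windows of genes tested. The core TCACNCCAC of a sterol response element was found in the window of Hmgcs1 and in 0.92% of all. An E2F site, searched as TTTCCCGC, was in 0 of 11 windows of the cholesterol genes, in 0 of 10 of the cell cycle list and in 2.05% of all. These motifs were chosen with the results known, among 5 searched, and a match is a description of letters, not a bound site. The windows below belong to 4 of the genes that passed (GRCm38.p6), with matches to either motif in capitals.
Hmgcs1, chr13:119690101-119690350, plus strand: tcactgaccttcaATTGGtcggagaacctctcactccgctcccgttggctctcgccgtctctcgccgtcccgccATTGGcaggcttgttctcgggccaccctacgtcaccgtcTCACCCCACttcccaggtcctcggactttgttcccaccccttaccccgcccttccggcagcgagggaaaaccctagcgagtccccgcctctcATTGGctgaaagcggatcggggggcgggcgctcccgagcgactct
Cyp51, chr5:4104698-4104947, minus strand: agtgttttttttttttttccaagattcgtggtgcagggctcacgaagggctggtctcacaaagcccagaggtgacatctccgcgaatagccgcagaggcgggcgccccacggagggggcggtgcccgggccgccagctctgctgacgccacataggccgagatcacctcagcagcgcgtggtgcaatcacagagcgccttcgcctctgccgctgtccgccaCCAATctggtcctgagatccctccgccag
Lss, chr10:76531355-76531604, plus strand: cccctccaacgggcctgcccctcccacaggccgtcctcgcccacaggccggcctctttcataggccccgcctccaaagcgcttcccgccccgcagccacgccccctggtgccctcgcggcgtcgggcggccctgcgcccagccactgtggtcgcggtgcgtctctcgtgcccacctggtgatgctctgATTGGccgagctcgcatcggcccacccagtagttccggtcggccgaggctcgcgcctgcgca
Insig1, chr5:28071162-28071411, plus strand: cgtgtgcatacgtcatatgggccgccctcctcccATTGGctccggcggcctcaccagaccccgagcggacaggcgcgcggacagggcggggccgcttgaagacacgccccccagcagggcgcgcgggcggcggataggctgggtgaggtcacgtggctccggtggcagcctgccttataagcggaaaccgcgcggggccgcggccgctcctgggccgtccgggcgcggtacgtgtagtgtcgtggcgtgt

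Of the genes of DNA replication and cell division, Mcm4 and Tk1 passed at the 0.05 level. All 17 genes tested of a list of 20 had a higher mean in TLR4-K810R, as 6719 of all 9707 had, 12 had the libraries apart, beside 21.3% of all genes, and 2 passed, beside 0.979%. The count of genes of the list that passed was 1 without replicate 1 or 3 of TLR4-K730R or replicate 1 or 2 of TLR4-K810R. It was 0 with only the 3 LPS-treated groups in limma's fit, with 12 at an unadjusted p below 0.05. Tk1, thymidine kinase, was at 1.17, 1.43 and 0.670 FPKM in TLR4-K730R LPS and at 4.47, 5.09 and 3.22 FPKM in TLR4-K810R LPS (1.33, adjusted p = 0.0265 from limma). Cdk1, the kinase that starts mitosis, was at 1.11, 1.12 and 1.09 FPKM against 3.45, 4.53 and 2.76 FPKM (1.1, adjusted p = 0.0582). Mki67, a general marker of cycling cells, overlapped, with 2.58 to 4.14 FPKM against 2.54 to 5.03 FPKM (0.05, adjusted p = 0.933).

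The median difference of the cell cycle list was 0.789 after LPS and 0.784 in mock-treated macrophages, 0.655 above all genes after LPS. With genes of at least 5 FPKM in 3 libraries it was 0.584 after LPS, and with a pseudocount of 0.1 it was larger, as given further below. The list means were 1.73, 1.73 and 1.60 in TLR4-K730R LPS and 2.32, 2.51 and 2.46 in TLR4-K810R LPS. Genes of the same kind outside the list, named after their values were seen, were Plk1 (1.1), Cdc20 (1.56), Aurkb (1.08), Dut (1.47) and Rrm1 (0.93), each past the 0.05 level and none above 6.27 FPKM in the 6 libraries.

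Markers of mesothelium and fibroblasts, cells that line and support the peritoneum, had higher sums in the TLR4-K810R LPS libraries, but none passed singly. All 10 tested of 13 markers had a higher mean in TLR4-K810R LPS, 8 with the libraries apart, beside 21.3% of all genes, and 0 passed at an adjusted p below 0.05 by limma, with 7 at an unadjusted p below 0.05. Their sum over the 13 markers was 76.1, 74.9 and 71.2 FPKM in TLR4-K730R LPS and 184.0, 183.7 and 177.4 FPKM in TLR4-K810R LPS, and 157, 64.6 and 225 FPKM in TLR4-WT LPS. Pdgfra was listed at 0 in all 6. The most abundant of them, Sparc, a matrix protein, was at 26.1, 26.2 and 21.9 FPKM against 79.1, 65.9 and 51.0 FPKM (1.35, adjusted p = 0.0944).

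The marker list was apart without LPS as well. Its median difference was 1.18 in mock-treated and 1.03 in LPS-treated macrophages, whereas that of cholesterol synthesis was 0.145 and 0.793. Among TLR4-WT LPS libraries the means of all 3 lists had the same order, with 2.04, 2.84 and 3.37 for the markers, 1.69, 2.11 and 2.38 for the cell cycle and 2.87, 3.14 and 3.51 for cholesterol synthesis in replicates 2, 1 and 3. In no other group did all 3 lists share an order. The markers and the cell cycle list shared one in TLR4-K810R LPS and in the mock-treated libraries of each mutant. The part of these cells in either list was not tested.

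**Figure D3:**
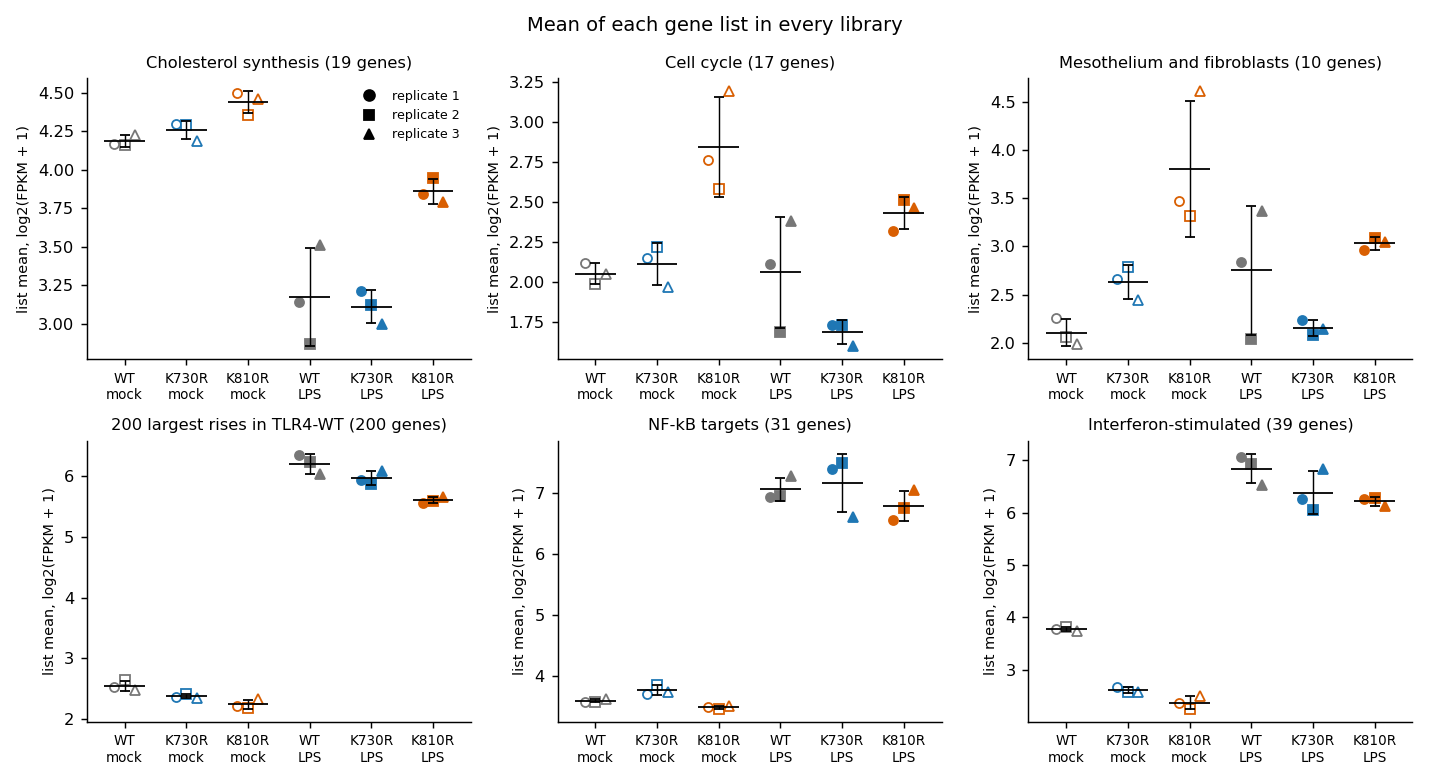
Mean log2(FPKM + 1) over the members of 6 gene lists in each of the 18 libraries by group (open points mock-treated, filled points LPS-treated, lines group means, bars SD, n = 3). Cholesterol synthesis is at 4.19 to 4.5 in mock-treated mutants and lies further apart after LPS, with 3.0 to 3.21 in TLR4-K730R and 3.79 to 3.95 in TLR4-K810R, while the cell cycle list is apart with and without LPS.

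Most inflammatory genes that LPS induces had a lower mean in TLR4-K810R than in TLR4-K730R, but few passed. Of 31 NF-κB target genes tested, 25 had a lower and 6 a higher mean, 8 had the libraries apart below, beside 4.44% of all genes, and 4 passed at an adjusted p below 0.05, all lower, beside 0.237%. These were Il12b, Ptgs2, Ccl4 and Tnfaip3. The median difference was -0.281, which is 0.415 below that of all genes. Without replicate 3 of TLR4-K730R the median was -0.405, and with median-of-ratios scaling -0.487. Without LPS it was -0.18 with 24 genes lower, beside 0.052 over all genes. Leaving out 1 of the 6 libraries at a time, 1 to 5 genes passed, the count being 1 without replicate 1 of TLR4-K730R or replicate 1 or 2 of TLR4-K810R and 2 without replicate 2 of TLR4-K730R. With only both compared groups or only the 3 LPS-treated groups in limma's fit 0 passed, with 7 and 8 at an unadjusted p below 0.05.

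Ptgs2, the inducible cyclooxygenase that makes prostaglandin precursors, was at 72.9, 69.5 and 35.5 FPKM in TLR4-K730R LPS and at 20.3, 19.2 and 32.0 FPKM in TLR4-K810R LPS (-1.25, adjusted p = 0.0265 from limma). The libraries did not overlap, although replicate 3 of TLR4-K730R and replicate 3 of TLR4-K810R came near each other, and TLR4-WT LPS had 33.6 to 36.6 FPKM. Ccl4, a chemokine for T cells and monocytes, was at 188, 243 and 217 FPKM against 101, 112 and 153 FPKM (-0.83, adjusted p = 0.0379). Tnfaip3 encodes A20, the deubiquitinase that ends NF-κB signalling, and was at 160, 154 and 156 FPKM against 107, 101 and 125 FPKM (-0.50, adjusted p = 0.0266), with a like difference in mock-treated macrophages (-0.49, adjusted p = 0.0371).

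Unlike Il12b, the cytokine genes Il6, Il1b and Tnf did not pass. Il6 was at 43.9, 74.9 and 16.4 FPKM in TLR4-K730R LPS and at 15.4, 11.5 and 17.3 FPKM in TLR4-K810R LPS (-1.33 with a standard error of 0.41, limma adjusted p = 0.104), and replicate 3 of TLR4-K730R lay within the range of TLR4-K810R. Il1b, at 2869, 2559 and 1430 FPKM against 1182, 985 and 1703 FPKM, had the same arrangement (-0.80, adjusted p = 0.114). Tnf was at 323, 330 and 259 FPKM against 264, 217 and 276 FPKM and overlapped (-0.27, adjusted p = 0.289). Over the alternatives the log2 difference of Il6 ranged from -2.03 to -0.69, that of Il1b from -1.33 to -0.51 and that of Tnf from -0.48 to -0.10. Without replicate 3 of TLR4-K730R, Il6 passed the 0.05 level at -1.91 with a limma adjusted p of 0.027, and without replicate 3 of TLR4-WT LPS as well the adjusted p was 0.00321. Il1b passed at the 0.05 level without both of these libraries (-1.11, adjusted p = 0.033) and was called when replicate 3 of every group was left out (-1.33, adjusted p = 0.00887). Over all alternatives the adjusted p ranged from 0.00321 to 0.503 for Il6 and from 0.00887 to 0.555 for Il1b.

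Further abundant NF-κB targets did not pass. Nfkbia, the inhibitor IκBα, was at 395, 453 and 408 FPKM in TLR4-K730R LPS and at 398, 357 and 392 FPKM in TLR4-K810R LPS (-0.13, adjusted p = 0.517). Cxcl1 differed by 0.02 (adjusted p = 0.991), with 515, 598 and 134 FPKM against 323, 277 and 482 FPKM, so that replicate 3 of TLR4-K730R was the lowest of the 6. Saa3, an acute-phase apolipoprotein, was listed at 1.63 FPKM in replicate 3 of TLR4-K730R and at 13.4 FPKM in replicate 1 of TLR4-K810R beside 9295 to 11137 FPKM in the other 4 libraries, and no direction can be read from it.

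Effector genes of M1 macrophages, the inflammatory state that LPS brings about, had a median below that of all genes. Of 17 tested, 16 had a lower mean in TLR4-K810R LPS, 11 with the libraries apart beside 4.44% of all genes, and the median was -0.501, which is 0.635 below that of all genes. At an adjusted p below 0.05, 3 passed, all lower, beside 0.237% of all genes, Il12b and Marco among them. The list means were 6.06, 6.10 and 6.24 in TLR4-K730R LPS and 5.56, 5.65 and 5.47 in TLR4-K810R LPS, and 6.26, 6.34 and 5.98 in TLR4-WT LPS, so that the 3 TLR4-K810R libraries were the lowest of the 9. Without replicate 3 of TLR4-K730R the median was -0.366 and 1 gene passed, as without replicate 2 or 3 of TLR4-K810R. In mock-treated macrophages the median was -0.157 with 11 of 17 genes lower.

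Marco, a scavenger receptor for bacteria, was at 124, 153 and 165 FPKM in TLR4-K730R LPS and at 89.9, 86.8 and 81.0 FPKM in TLR4-K810R LPS (-0.76, adjusted p = 0.0183 from limma). It was further apart without LPS, at 105 to 111 FPKM against 29.6 to 42.3 FPKM (-1.54, adjusted p = 3.59e-05).

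Nos2, the inducible nitric oxide synthase, was at 144, 123 and 441 FPKM in TLR4-K730R LPS and at 74.0, 78.0 and 58.7 FPKM in TLR4-K810R LPS (-1.50 with a standard error of 0.43, limma adjusted p = 0.0832). The libraries did not overlap, but replicate 3 of TLR4-K730R was far above the others, near the 406 and 423 FPKM of replicates 1 and 2 of TLR4-WT LPS. Without it the difference was -0.92, and over the alternatives it ranged from -1.92 to -0.80 with an adjusted p from 0.0227 to 0.398. Cd86, a costimulatory protein used as an M1 marker, was at 25.9, 24.3 and 43.9 FPKM against 23.2, 22.5 and 21.4 FPKM (-0.42, adjusted p = 0.43), and differed by -0.16 without replicate 3 of TLR4-K730R. Il15 overlapped (-0.04, adjusted p = 0.971).

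**Figure D4:**
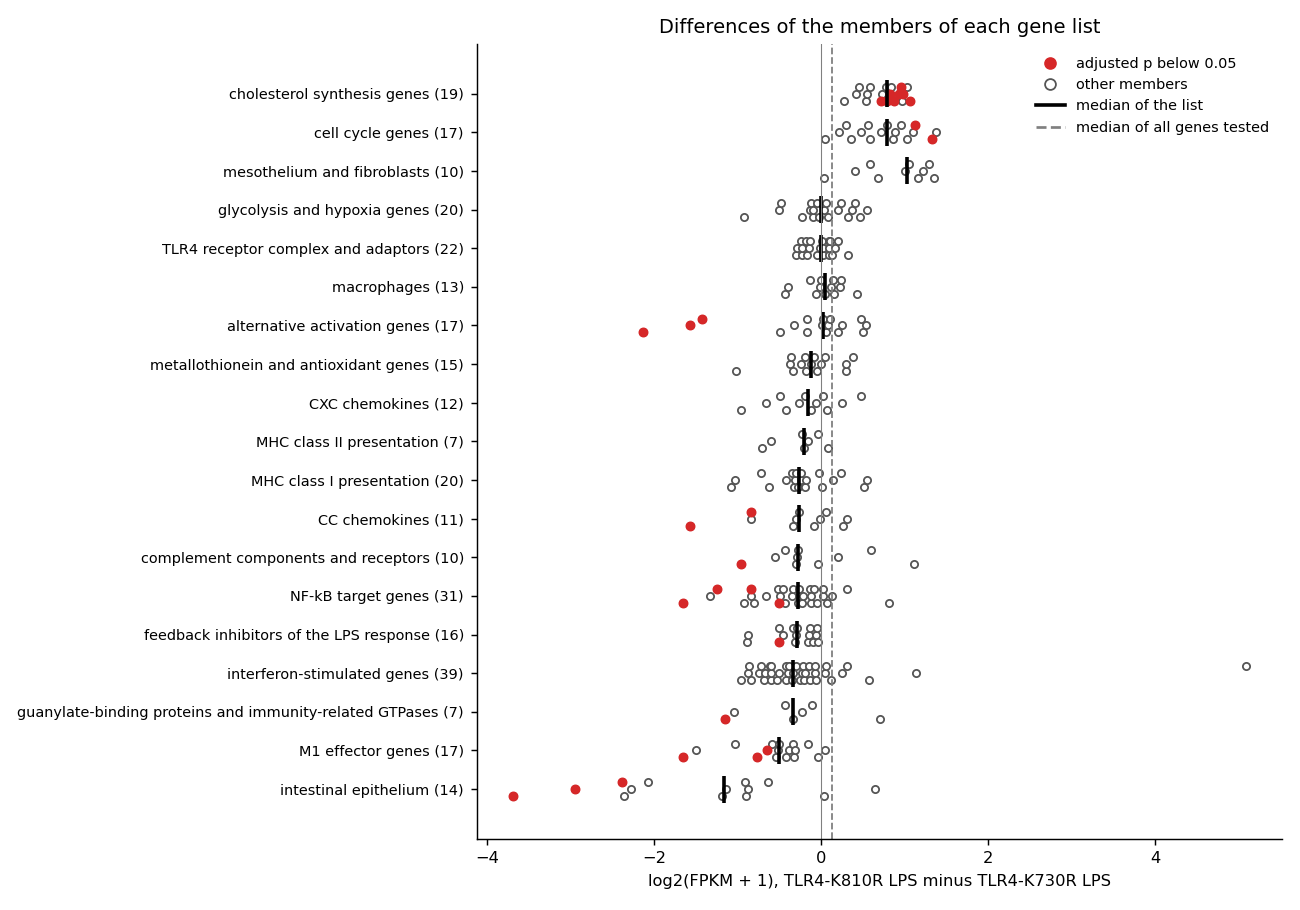
Log2 difference of TLR4-K810R minus TLR4-K730R after LPS for the tested members of each gene list, each point a gene (red at an adjusted p below 0.05) and each bar a list median, with the median of all genes (0.134) as a dashed line. Cholesterol synthesis (median 0.793), cell cycle (0.789) and the mesothelium and fibroblast markers (1.03) lie right of the line, and M1 effector genes (-0.501) and NF-κB targets (-0.281) left of it.

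Of the genes that restrain the LPS response, Tnfaip3 passed. All 16 tested of 20 feedback inhibitors had a lower mean in TLR4-K810R LPS, 7 with the libraries apart, beside 4.44% of all genes, and 1 passed, beside 0.237%. The list median was -0.291, which is 0.425 below that of all genes. Without both libraries that stood apart, 14 of the 16 were lower and the median was -0.241. In mock-treated macrophages 13 were lower, with a median of -0.164. Il10, the anti-inflammatory cytokine, was at 2.58, 2.61 and 6.28 FPKM in TLR4-K730R LPS and at 1.93, 0.969 and 1.59 FPKM in TLR4-K810R LPS (-0.89, adjusted p = 0.158, named after its values were seen). Il1rn, the interleukin-1 receptor antagonist, was at 832, 718 and 1566 FPKM against 942, 925 and 874 FPKM and overlapped (-0.10, adjusted p = 0.884).

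Interferon-stimulated genes leaned the same way but rested on replicate 3 of TLR4-K730R. Of 39 tested, 31 had a lower and 8 a higher mean in TLR4-K810R LPS, 13 were apart below, beside 4.44% of all genes, and 1 above, beside 21.3%, and 0 passed at an adjusted p below 0.05 by limma, with 14 at an unadjusted p below 0.05. Their median was -0.330, which is 0.464 below that of all genes, and -0.540 with median-of-ratios scaling. Without that replicate the median was -0.126 with 25 lower and 14 higher, while that of all genes was 0.117. In mock-treated macrophages it was -0.181 with 29 lower. Rsad2, which encodes the antiviral protein viperin and is named here after its values were seen, shows the pattern with 377, 344 and 898 FPKM in TLR4-K730R LPS and 295, 274 and 306 FPKM in TLR4-K810R LPS (-0.74, adjusted p = 0.227). Irf7, the transcription factor that amplifies interferon, was at 680, 861 and 930 FPKM against 649, 713 and 782 FPKM (-0.20, adjusted p = 0.818). Isg15 had the highest value of the list, 5.08, because it was listed at 0 in 4 of the 6 libraries and at 218 and 177 FPKM in replicates 1 and 2 of TLR4-K810R, and is not read as a difference.

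Of 7 guanylate-binding proteins and immunity-related GTPases, enzymes that attack vacuoles with microbes, 6 had a lower mean in TLR4-K810R LPS, as 2952 of all 9707 genes had, and the median was -0.341, which is 0.475 below that of all genes, or -0.553 with median-of-ratios scaling. Gbp4, 1 of the 7, passed lower at the 0.05 level, beside 0.237% of all genes, with 14.9, 18.6 and 31.7 FPKM in TLR4-K730R LPS and 7.49, 10.4 and 8.49 FPKM in TLR4-K810R LPS (-1.16, adjusted p = 0.04 from limma). Its first-exon and last-exon means differed, so 1 end of the gene is listed in part. Gbp2, the most abundant, was at 398, 362 and 609 FPKM against 359, 362 and 330 FPKM and overlapped (-0.34, adjusted p = 0.37). Without replicate 3 of TLR4-K730R the list median was -0.114. In mock-treated macrophages all 7 had a higher mean in TLR4-K810R, with a median of 0.595.

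Chemokines, antigen presentation and complement had medians below 0 that depended on the libraries used. The median was -0.265 over 11 CC chemokines, of which Ccl4 and Ccl8 passed, both lower, beside 0.237% of all genes, and -0.155 over 12 CXC chemokines, of which 0 passed and 1 had an unadjusted p below 0.05. It was -0.259 over 20 genes of MHC class I presentation and -0.209 over 7 of class II, again with 0 passing at an adjusted p below 0.05 by limma, and 6 and 2 at an unadjusted p below 0.05. Without both libraries that stood apart these medians were -0.024 for CC chemokines (5 genes higher and 6 lower), -0.298 for CXC chemokines, -0.130 for class I and -0.113 for class II. With median-of-ratios scaling they were -0.472, -0.332, -0.471 and -0.357, and that of complement genes was -0.491. Complement genes had a median of -0.280 over 10 genes, which became 0.030 without both libraries that stood apart. Of these 10, C4b passed in limma's test, lower (-0.95, adjusted p = 0.0341), beside 0.237% of all genes. Metallothionein and antioxidant genes (-0.124 over 15), glycolysis and hypoxia genes (0.003 over 20), and heat shock and immediate early genes (0.048 over 6) held no gene that passed in limma's test, with 0, 4 and 1 at an unadjusted p below 0.05. Their medians without both libraries were -0.255, 0.007 and -0.125.

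No gene tested of the receptor complex and its adaptors passed between the mutants. Tlr4 was at 5.10, 4.38 and 4.57 FPKM in TLR4-K730R LPS and at 4.18, 4.74 and 5.28 FPKM in TLR4-K810R LPS (0.01 with a standard error of 0.15, limma adjusted p = 0.982), which does not check a point mutation. Of 22 genes tested of the complex and its adaptors, 11 had a higher and 11 a lower mean, their differences ranged from -0.301 to 0.326, and 0 passed at an adjusted p below 0.05 by limma, with 2 at an unadjusted p below 0.05. Of the 22, 4 had the libraries apart above, beside 21.3% of all genes, and 3 below, beside 4.44%. With median-of-ratios scaling 3 were higher and 19 lower. Myd88, the main adaptor, was at 84.7, 83.6 and 99.7 FPKM against 78.9, 78.3 and 78.7 FPKM (-0.18, adjusted p = 0.312). Traf6, the ubiquitin ligase downstream of it, was at 7.80, 8.40 and 7.49 FPKM against 6.02, 6.04 and 6.60 FPKM, apart but not past the threshold (-0.30, adjusted p = 0.124). Cd14, Ticam1, Ticam2 and Irak1 are not analysed here.

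Genes of alternatively activated macrophages did not move together. Of 17 tested, 10 had a higher and 7 a lower mean in TLR4-K810R LPS, with a median of 0.026, which was 0.078 without replicate 3 of TLR4-K730R and 0.005 without both libraries that stood apart. With median-of-ratios scaling 5 were higher and 12 lower. The 3 that passed at the 0.05 level, beside 0.237% of all genes, were lower, Retnla with Fcna and Ccl8. Retnla, a secreted protein that interleukin-4 induces, was at 10.6, 13.6 and 30.2 FPKM in TLR4-K730R LPS and at 3.18, 2.87 and 2.87 FPKM in TLR4-K810R LPS (-2.14 with a standard error of 0.33, limma adjusted p = 0.0121). Without LPS it was as far apart, at 15.5 to 21 FPKM against 1.28 to 3.42 FPKM (-2.46, adjusted p = 0.00312).

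Of 8 markers of resident peritoneal macrophages, 3 had a higher and 5 a lower mean in TLR4-K810R LPS, with a median of -0.099, and 1 passed, which was lower, beside 0.237% of all genes. The median was -0.314 without replicate 1 of TLR4-K810R LPS (1 higher, 7 lower) and -0.089 without replicate 3 of TLR4-K730R LPS (4 higher, 4 lower). Without both it was -0.226 (2 higher, 6 lower), and with median-of-ratios scaling -0.271 (1 higher, 7 lower). Cd5l, a secreted scavenger protein of tissue macrophages, was at 51.6, 54.8 and 81.2 FPKM in TLR4-K730R LPS and at 33.4, 35.2 and 33.6 FPKM in TLR4-K810R LPS (-0.83, adjusted p = 0.0266 from limma). Timd4, a receptor for dying cells, was at 2.44, 2.35 and 7.04 FPKM against 1.20, 0.865 and 1.36 FPKM (-1.08, adjusted p = 0.0823). The summed level of the 12 markers overlapped, at 903 to 1154 FPKM in TLR4-K730R LPS and 877 to 1051 FPKM in TLR4-K810R LPS. Dcstamp, which macrophages need to fuse into giant cells, was at 4.20, 3.92 and 3.11 FPKM against 1.15, 1.54 and 1.15 FPKM (-1.05, adjusted p = 0.015).

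Both lists drawn from the libraries labelled TLR4-WT had medians of opposite sign. Of the 200 genes that rose most with LPS in TLR4-WT, 172 had a lower and 28 a higher mean in TLR4-K810R LPS than in TLR4-K730R LPS, 66 were apart below, beside 4.44% of all genes, and 6 passed at the 0.05 level, all lower, beside 0.237%. Of the 200 that fell most, 161 had a higher and 39 a lower mean, 67 were apart above, beside 21.3% of all genes, and 8 passed, all higher, beside 0.979%. The medians were -0.339 and 0.267, which is 0.473 below and 0.133 above that of all genes. Without LPS they were -0.035 and 0.017. With median-of-ratios scaling they were -0.549 and 0.127, and without both libraries that stood apart -0.244, with 150 lower, and 0.259. Drawn again without replicate 3 of TLR4-WT LPS, the lists shared 190 and 172 of their 200 genes with those above, and with replicate 3 of TLR4-K730R LPS left out too their medians were -0.273 and 0.33. The genes that passed were less stable than the medians. Leaving out 1 of the 6 libraries at a time, 2 to 6 of the first list passed lower and 0 to 5 of the second higher, the latter 0 without replicate 1 of TLR4-K730R or any library of TLR4-K810R, with 52 to 66 at an unadjusted p below 0.05. The counts were 0 in both lists with only both compared groups in limma's fit (51 and 58 at an unadjusted p below 0.05) or only the 3 LPS-treated groups (51 and 52).

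The genes with the smallest p in the first list were Il12b, Draxin, Slc1a2, Ptgs2 and Ccl4. Draxin, known from axon guidance, was at 9.54, 10.1 and 10.3 FPKM in TLR4-K730R LPS and at 5.77, 6.21 and 6.13 FPKM in TLR4-K810R LPS (-0.64, limma adjusted p = 0.0183), and stood at 0 in the 6 mock-treated mutant libraries. Slc1a2, a glutamate transporter, was at 10.8, 10.4 and 3.90 FPKM against 2.76, 1.40 and 2.37 FPKM (-1.48, adjusted p = 0.0195), almost all of it first-exon events. In the second list Fabp5, a fatty acid binding protein, was at 476, 532 and 654 FPKM in TLR4-K730R LPS and at 867, 792 and 755 FPKM in TLR4-K810R LPS (0.55, adjusted p = 0.0341), beside 3039 to 3745 FPKM in the mock-treated mutants. Phlda3, a p53 target, was at 1.17, 1.45 and 1.12 FPKM against 2.97, 4.35 and 3.18 FPKM (0.99, adjusted p = 0.0319).

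The remaining genes with the smallest p among those higher in TLR4-K810R were Htra2, Sprr2e, Dctn2, S100a9 and Kirrel. Dctn2, a subunit of dynactin, was at 43.1, 49.6 and 44.8 FPKM in TLR4-K730R LPS and at 77.2, 68.8 and 65.6 FPKM in TLR4-K810R LPS (0.61, adjusted p = 0.0175 from limma). Htra2, a mitochondrial protease, was at 12.5, 13.9 and 14 FPKM against 26.1, 34.2 and 29.5 FPKM (1.09, adjusted p = 0.0149), but over the alternatives its difference ranged from 0.43 to 1.21. Sprr2e, a protein of the epidermal envelope, was at 2.09, 0.959 and 0.982 FPKM against 8.80, 6.4 and 7.25 FPKM (1.88, adjusted p = 0.015). S100a9, a calcium-binding protein on the list of neutrophil markers (1.33, adjusted p = 0.0175), and Kirrel did not exceed 2.23 FPKM in any of the 6 libraries.

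Markers of cells from other tissues differed between the LPS libraries of the mutants. Reg3b, an antibacterial lectin of the gut, was at 30.9, 25.8 and 29.5 FPKM in TLR4-K730R LPS and at 9.26, 0.194 and 0 FPKM in TLR4-K810R LPS (-3.68, adjusted p = 0.0195 from limma), and Reg3g (-2.95, adjusted p = 0.0265) and Lypd8 (-2.38, adjusted p = 0.0322) had the same arrangement. Of 14 tested intestinal markers 3 passed at the 0.05 level, all lower, beside 0.237% of all genes. In mock-treated macrophages Reg3b was higher in TLR4-K810R, at 32.4, 29.5 and 45.7 FPKM against 11.7, 22.6 and 25.0 FPKM in TLR4-K730R. The list median there was 0.247, with 10 markers higher and 4 lower in TLR4-K810R. After LPS the sum of 20 intestinal markers was 81.5 to 86.8 FPKM in TLR4-K730R, and 36.9, 6.16 and 4.21 FPKM in TLR4-K810R. Cdh17 and Phgr1 were listed at 0 in all 6. The sum of 8 lung markers was 0 to 1.20 FPKM in TLR4-K730R LPS, and 1.25, 25.2 and 34.9 FPKM in TLR4-K810R LPS, most of it Scgb1a1, with Cyp2f2 and Foxj1 at 0. The part of such RNA in the results above was not tested.

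The marker sums of blood cells were closer. They were 11.5 to 13.4 FPKM in TLR4-K730R LPS against 16.5 to 19.6 FPKM in TLR4-K810R LPS for B cells, which did not overlap, and 21.6 to 36.1 against 30.0 to 39.6 FPKM for T cells. Of 5 tested B cell markers, however, 2 had a higher and 3 a lower mean in TLR4-K810R LPS, with a median of -0.073. Their list means of log2(FPKM + 1) overlapped, at 1.47, 1.38 and 1.45 against 1.44, 1.53 and 1.29. Neutrophil markers summed to 247 to 293 FPKM against 224 to 256 FPKM, dendritic cell markers to 34.0 to 42.1 against 29.6 to 35.4 FPKM, mast cell markers to 8.50 to 23.5 against 8.25 to 11.2 FPKM, and eosinophil markers to 1.54 to 2.86 against 0.731 to 2.35 FPKM, all overlapping. Of 6 tested neutrophil markers 3 had a higher and 3 a lower mean in TLR4-K810R LPS. Their median was 0.038, which is 0.096 below that of all genes. S100a9 passed, higher in TLR4-K810R, beside 0.979% of all genes. The list means of log2(FPKM + 1) of these 6 were 3.35, 3.24 and 3.02 in TLR4-K730R LPS and 3.42, 3.5 and 3.56 in TLR4-K810R LPS, which did not overlap. Erythroid markers summed to 0.103 to 7.19 against 0.095 to 2.54 FPKM. Defining markers at 0 in all 6 libraries included Ms4a1, Pax5 and Ighm of B cells, Cd3e, Lck and Cd4 of T cells, Elane and Cxcr2 of neutrophils, Fcer1a of mast cells, Epx of eosinophils, and Flt3 and Xcr1 of dendritic cells.

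**Figure D5:**
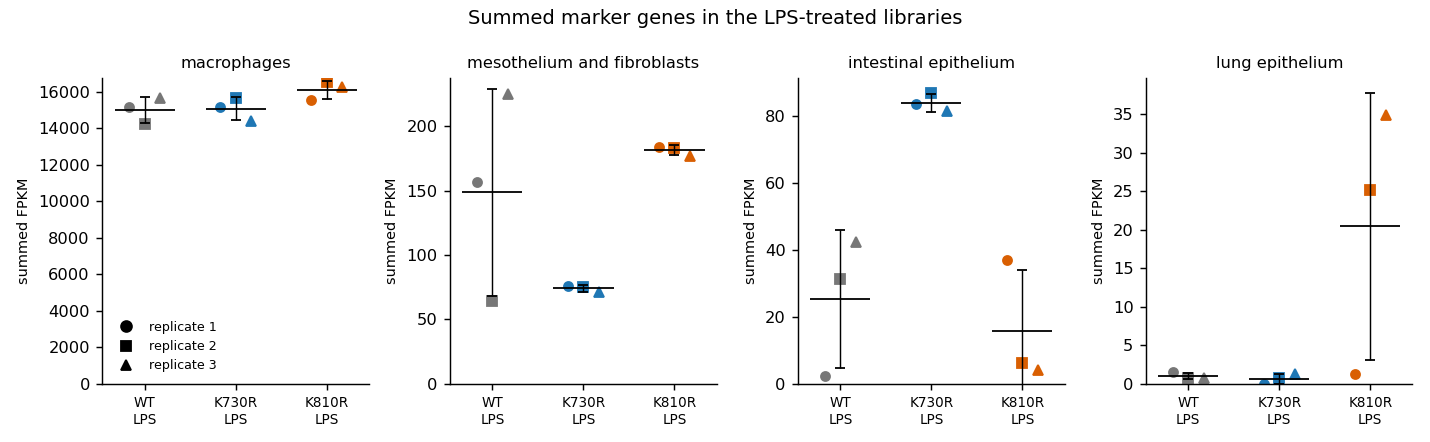
Summed FPKM of the markers of macrophages, mesothelium and fibroblasts, intestinal epithelium and lung epithelium in the 9 LPS-treated libraries by genotype (points libraries, lines group means, bars SD, n = 3). Mesothelium and fibroblast markers are at 71.2 to 76.1 FPKM in TLR4-K730R against 177 to 184 FPKM in TLR4-K810R, and intestinal markers at 81.5 to 86.8 and 4.21 to 36.9 FPKM.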

How the data were processed

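RNA-seq of peritoneal macrophages was analysed for 18 libraries, 3 in each of 6 groups of genotype and treatment given by the labels. RNA was purified on columns and sequenced by a company on an Illumina instrument. The authors deposited FPKM values for transcript events of each library, normalized for length and library size, with Ensembl gene numbers, and events without expression have no row. The aligner and counting program are not given in the sources used here, and the submitters' processing notes name a human build, although the coordinates match the mouse build GRCm38.

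From these values, first-exon and last-exon events that overlapped the named gene on its strand in GENCODE M21 were kept, which dropped 5.99% of their FPKM. The value of a gene was the larger of both sums, computed with Python 3.11.15, pandas 2.3.3 and numpy 2.4.6 for 13598 genes. Of the 6 libraries compared, each held 80071 to 87593 event rows. Read counts are missing from what was used here, hence neither depth nor a counting interval can be given. A gene entered the test when it reached 1 FPKM in 3 or more libraries, which held for 9707. Values as log2(FPKM + 1) were fitted with limma 3.58.1 (R 4.3.3) for the 6 groups together, with an intensity trend, and p-values were adjusted by Benjamini-Hochberg over every gene tested. A call needed an adjusted p below 0.01, as in the study, and 0.05 served as a second level. The test was checked on simulated data.

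The comparison, its gene lists and its marker lists were chosen with earlier results of these data known, and lists are described by counts and medians without a test. Genes were named as members of the receptor complex, as genes the study names, as the genes with the smallest p in each direction, as called members of lists with the 2 smallest p and the 2 highest levels, and as markers that reached 5 FPKM. Genes outside this rule are marked as named after their values were seen. Adgre1, Csf1r, Fdps, Cdk1, Mki67, Cxcl1 and Isg15 also lie outside it and carry no such mark. Hp was named by the test of the LPS responses. Alternatives for the pseudocount, filter, scaling, fit, weights, event ends, threshold, replicate block and left-out libraries were tried. Leaving out both libraries that stood apart, or replicate 3 of both TLR4-K730R LPS and TLR4-WT LPS, was chosen after seeing the data. Stat4, Hif1a and Ifng are not analysed here, and some members of the lists are not reported singly.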

Additional observations from a re-analysis of the deposited data

Results flagged for a closer look

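Haptoglobin (Hp), an acute-phase protein that binds free hemoglobin, responded to LPS by more in TLR4-K810R than in TLR4-K730R macrophages. The difference between the LPS responses was 1.84 on the log2 scale (standard error 0.20, adjusted p = 0.00141 from limma, over 9707 genes), and it is listed here because that difference itself passed. Mock-treated macrophages had 428, 453 and 408 FPKM in TLR4-K730R and 197, 164 and 165 FPKM in TLR4-K810R (-1.30, adjusted p = 0.000509). After LPS the order was turned, with 1082, 1174 and 941 FPKM in TLR4-K730R and 1632, 1567 and 1461 FPKM in TLR4-K810R (0.55, adjusted p = 0.0666). TLR4-WT macrophages had 254 to 294 FPKM without and 869 to 1286 FPKM with LPS. The mutants did not overlap in either condition, and most of the 1.84 lay in the mock-treated libraries.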

How the results depend on the processing

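The medians of 8 lists (cholesterol synthesis, cell cycle, mesothelium and fibroblasts, NF-κB targets, interferon-stimulated genes, guanylate-binding proteins with immunity-related GTPases, and both lists from TLR4-WT) kept their sign under the alternatives tried, whereas the counts of called genes did not hold. Against 3 higher and 3 lower genes, 5 were higher with a pseudocount of 0.1, 0 higher and 0 lower with only both groups or only the LPS groups in the fit (48 and 0 at an adjusted p below 0.05, and 1694 and 1631 at an unadjusted p below 0.05), 24 and 12 with library weights, 5 and 5 without the check of event position, 8 and 6 with genes whose ends agree, 95 and 23 at a threshold of 0.05, 1 and 8 without both libraries that stood apart, 10 and 13 without replicate 3 of TLR4-K730R LPS and of TLR4-WT LPS, and 11 lower with median-of-ratios scaling. Leaving out libraries gave 0 to 4 higher and 0 to 7 lower genes.

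With a pseudocount of 0.1 the medians were 0.939 for cholesterol synthesis, 1.347 for the cell cycle, 1.289 for mesothelium and fibroblasts and 0.382 for the 200 genes that fell most in TLR4-WT. With median-of-ratios scaling they were 0.652 for cholesterol synthesis, 0.886 for mesothelium and fibroblasts, -0.549 for the 200 genes that rose most and 0.127 for those that fell most. The cell cycle median was 0.584 at 5 FPKM. That of mesothelium and fibroblasts was 0.844 without a filter, 1.192 at 5 FPKM and 1.109 with last-exon events, and that of the genes that fell most was 0.305 with genes whose ends agree. Without both libraries that stood apart, the genes that rose most had -0.244, and without replicate 3 of TLR4-K730R LPS and of TLR4-WT LPS those that fell most had 0.33. Leaving out libraries gave 0.734 to 0.860 for cholesterol synthesis, 0.756 to 0.912 for the cell cycle, 0.951 to 1.135 for mesothelium and fibroblasts, -0.416 to -0.231 for genes that rose most and 0.257 to 0.339 for those that fell most. The cause of these shifts was not tested.

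The replicate numbers did not pair the libraries, since deviations of same-numbered libraries correlated with r from -0.32 to 0.099, and with the replicate block 4 genes were called, 2 higher and 2 lower, with 25 at an adjusted p below 0.05. No depth is known, and values of genes with 1 end listed are partial.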

Other observations

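The genes below were named after their values were seen, from those past the 0.05 level, and stand for no list. Chchd3 and Chchd6, which hold the folds of the inner membrane, differed by 0.59 (adjusted p = 0.0489 from limma) and 0.75 (adjusted p = 0.0379) after LPS. Got2, the mitochondrial aspartate aminotransferase, was at 20.6, 19.8 and 20.9 FPKM in TLR4-K730R and at 27.4, 29.4 and 26.1 FPKM in TLR4-K810R (0.42, adjusted p = 0.0369). Uqcr11, a subunit of respiratory complex III, was at 34.2, 40.1 and 31.3 FPKM against 102, 51.3 and 81.0 FPKM (1.08, adjusted p = 0.0477). Of these, the mock-treated mutants differed by 0.10 for Uqcr11 (adjusted p = 0.95) and by 0.30 for Got2 (adjusted p = 0.159).

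Mfge8, which bridges dying cells to the cells that engulf them, was at 166, 149 and 192 FPKM in TLR4-K730R LPS and at 270, 264 and 256 FPKM in TLR4-K810R LPS (0.65, adjusted p = 0.0265 from limma), with no call in mock-treated macrophages (0.05, adjusted p = 0.943). Lgals1, the lectin galectin-1, was at 403, 460 and 471 FPKM against 672, 626 and 628 FPKM (0.53, adjusted p = 0.0379). Cdkn1a, which encodes the cell cycle inhibitor p21, was lower, at 52.9, 53.2 and 63.3 FPKM against 39.5, 33.0 and 41.0 FPKM (-0.57, adjusted p = 0.0315). Among genes of matrix proteins and their folding, those named here were Nid1 (1.47, adjusted p = 0.0265), Col4a1 (1.19, adjusted p = 0.0319) and Serpinh1 (1.56, adjusted p = 0.0423), beside 1.19, 0.92 and 1.25 in mock-treated macrophages.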
